A study of Mus musculus with 3 samples.

Results

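Venular endothelial cells of the mouse bone marrow are described here across 3 droplet single-cell libraries, 1 for each of 3 groups of mice. The cells were chosen by their own counts of unique molecular identifiers (UMIs, 1 per captured RNA molecule). A barcode was called a cell from 1000 UMIs and 500 genes upward with mitochondrial UMIs below 10%. It was taken as endothelial with at least 1 UMI of Cdh5, at least 3 UMIs summed over Cdh5, Egfl7, Esam and Cldn5, and none of Ptprc, the gene of CD45. It was taken as venular with at least 2 UMIs summed over Selp, Ackr1, Vwf and Slco2a1, at most 1 UMI of the capillary gene Gpihbp1 and none of the sinusoidal gene Stab2. This gate held 177 of the 16318 called cells, 140 in the library labelled WT, 21 in BMT and 16 in aGVHD. WT mice were untreated female CB6F1, the F1 of BALB/c and C57BL/6. For BMT (bone marrow transplantation), female CB6F1 recipients received 2 irradiations of 4.0 Gy and, 4 hours later, marrow cells of B6.SJL donors by vein. For aGVHD (acute graft-versus-host disease), such recipients were also given spleen cells of female C57BL/6 donors. Before loading, live cells (Calcein AM, DAPI) were sorted in all 3 groups, leaving out cells marked by CD45, lineage antibodies or CD71. How many mice were pooled and on which day they were killed is not stated in the labels used here.

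Venules drain the capillary bed and are the main site where blood leukocytes leave the circulation. Their endothelium stores P-selectin (the product of Selp) and von Willebrand factor (Vwf) in Weibel-Palade bodies, displays chemokines on the atypical receptor ACKR1, and takes up prostaglandins through SLCO2A1. Leukocytes first roll on P-selectin and on E-selectin (Sele), which cytokines induce, and then hold to ICAM-1 and VCAM-1. In a transplanted mouse the vessel wall is largely host tissue that donor T cells meet. Interferon gamma makes endothelial cells load and show more peptide on MHC molecules and release CXCR3 ligands such as CXCL9 and CXCL10.

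With 1 library per group no test between groups was possible. Every interval in the text is an exact 95% counting interval: it covers the counting of cells or UMIs and not the spread between mice. Levels are UMIs summed over the gated cells of a library and scaled to 1000000 UMIs (CPM). The 4 venular genes are given only as counts of cells, since the gate fixes them. The libraries held 86575425 UMIs (WT), 44219063 (BMT) and 67439098 (aGVHD). The gated cells had medians of 5767.5, 8262 and 6329.5 UMIs and sums of 969537, 194777 and 129467 UMIs in the same order. The estimated part of free RNA in them was low, at 0.613%, 0.561% and 0.681%. Pairs of libraries shared between 8 and 11 called barcodes, and none of these was a venular cell.

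The label held for most gated cells in WT and for fewer in BMT and aGVHD. In WT, 118 of 140 cells carried Selp or Ackr1 and 61 carried all 4 venular genes. In BMT, 8 of 21 cells carried Selp or Ackr1 and 5 carried all 4, while 13 of 21 qualified through Vwf or Slco2a1 only. In aGVHD, 11 of 16 cells carried Selp or Ackr1 and none carried all 4 genes. Part of the BMT gate leaned to arterial genes: 8 of its 21 cells had at least 20 UMIs of an arterial list (Gja4, Gja5, Sox17, Sema3g, Fbln5 and others), and all 8 lacked Selp and Ackr1. The other 5 of the 13 BMT cells without Selp or Ackr1 had fewer. The limit of 20 UMIs is not scaled to depth. It was also passed by 12 of 140 WT cells, 7 of them with Selp or Ackr1, and by 2 of 16 aGVHD cells, 1 of them with. In aGVHD, 5 of 16 cells held at least 100 UMIs of megakaryocyte and platelet genes, and 4 of those 5 scored as likely doublets. Some of those 5 were among the 11 cells with Selp or Ackr1. In WT, 11 of 140 cells held at least 50 UMIs of fibroblast genes.

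**Figure D1:**
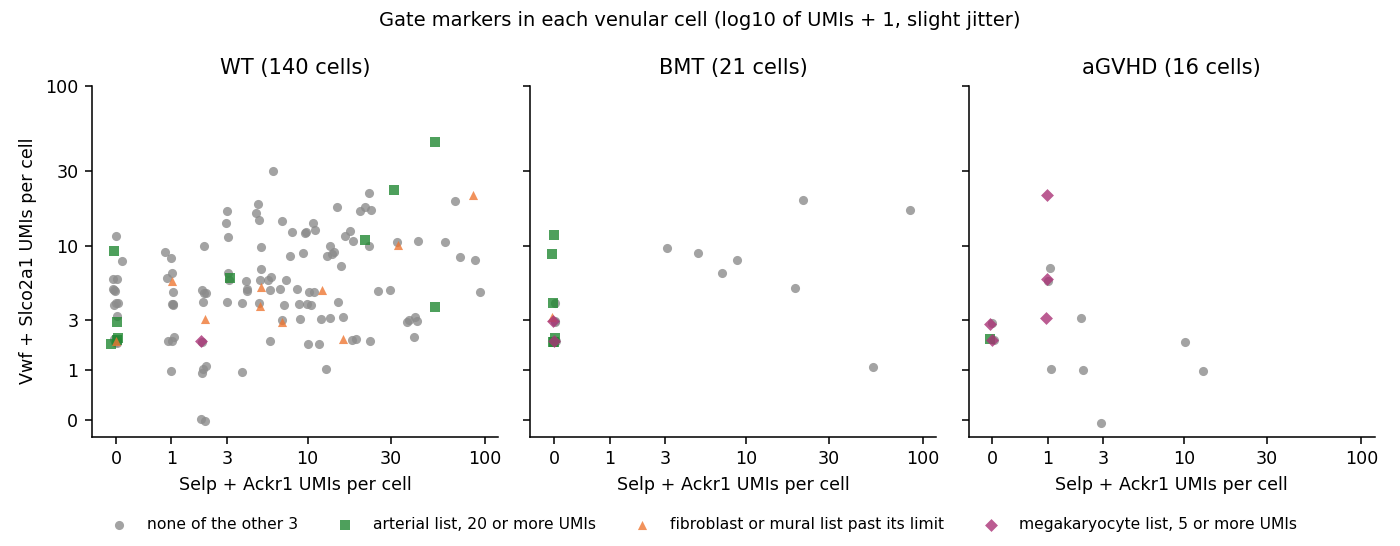
UMIs per gated cell of Selp plus Ackr1 against Vwf plus Slco2a1 in the 3 libraries, 1 point per cell. In WT 118 of 140 cells carry Selp or Ackr1, in BMT 8 of 21 and in aGVHD 11 of 16, some of the 11 being cells with megakaryocyte RNA.

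A stricter set, called core cells in the text, was therefore described beside the whole gate. Core cells carry at least 1 UMI of Selp or Ackr1 and have under 5 UMIs of the megakaryocyte list, under 50 of the fibroblast list and under 10 of a mural list. They numbered 108 in WT, 8 in BMT and 8 in aGVHD. This set was defined after the mixed cells had been seen. A venous list that the gate did not use (14 genes, among them Nr2f2, Ephb4, Nrp2, Lrg1, Sele, Icam1 and Vcam1) summed to 5685 CPM in WT core cells, 6308 in BMT and 5949 in aGVHD. Over the whole gate it summed to 4766, 3548 and 2688 CPM. Capillary cells of the same libraries (at least 2 UMIs of Gpihbp1, at most 1 venular UMI, no Stab2) had 1122, 825.0 and 1138 CPM of this list. In these sums the core cells of all 3 libraries thus stood well above the capillary cells in venous RNA. Single cells were uneven: 1 aGVHD core cell held 94 UMIs of the venous list and another held 1. The capillary gene Gpihbp1 was found in 8 of 108 WT, 3 of 8 BMT and 5 of 8 aGVHD core cells. Sinusoidal cells (at least 1 UMI of Stab2) held 4002, 2766 and 3679 CPM. Cells at the edge of the rule were the weakest in WT: a venular sum of exactly 2 went with 1720 CPM of the venous list over 12 cells, a sum of 3 or more with 4934 CPM over 128 cells, and a sum of 1, just outside, with 1238 CPM over 29 cells. In BMT these 3 values were 1320 (5 cells), 4154 (16 cells) and 1114 CPM (8 cells), and in aGVHD 927.4 (4 cells), 3128 (12 cells) and 3370 CPM (10 cells).

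RNA of other cell types was uneven between the gates of the 3 libraries. The 8 megakaryocyte genes summed to 49.5 CPM in WT, 949.8 in BMT and 15811 in aGVHD, and to 54.0, 51.2 and 115.7 CPM in core cells. The 8 fibroblast genes summed to 11425 CPM in WT, 210.5 in BMT and 1692 in aGVHD, and to 175.2, 140.7 and 23.1 CPM in core cells. The 13 arterial genes summed to 1354, 2423 and 1259 CPM, and to 1152, 780.5 and 787.1 CPM in core cells. Of the 9 T and NK cell genes, Cd3e, Cd3d, Cd8a and Cd4 had no UMI in any of the 3 gates, and of the 8 macrophage genes C1qa, C1qc, Csf1r, Adgre1 and Ms4a7 had none. The macrophage list still summed to 11.3, 71.9 and 316.7 CPM through its other genes, and to 10.2, 0 and 23.1 CPM in core cells. The T and NK list summed to 3.09, 0 and 23.2 CPM and the neutrophil list to 63.9, 107.8 and 185.4 CPM. The 6 B lineage genes summed to 581.7, 492.9 and 162.2 CPM, with UMIs in 128 of 140 WT cells. Nearly all of it was Ebf1 (578, 488 and 162 CPM).

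**Figure D2:**
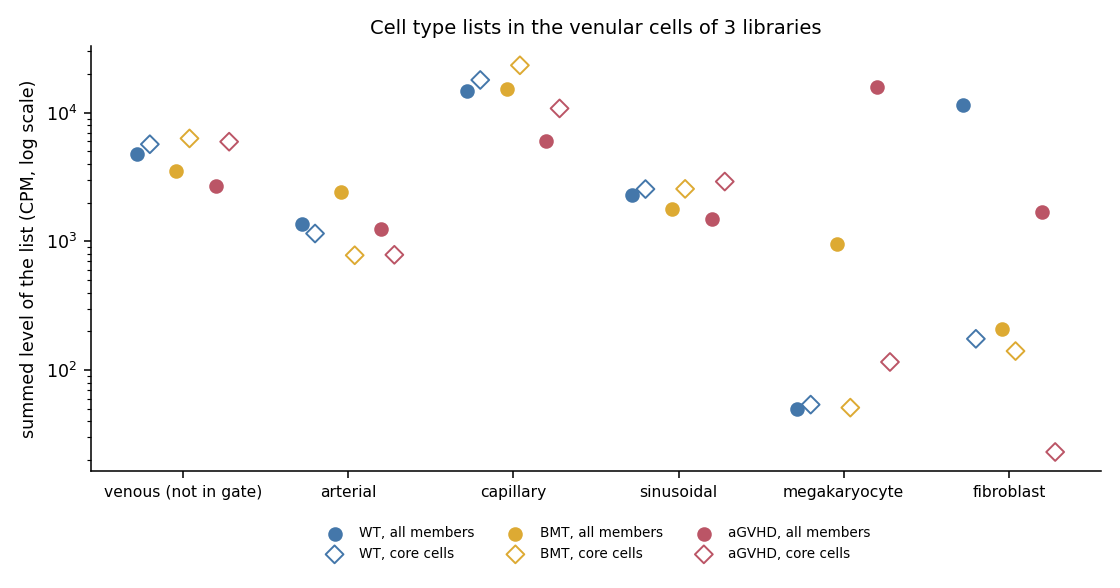
Summed level of each cell type list in CPM (log scale) in the gated cells of each library, for all gated cells and for core cells. The venous list lies between 5685 and 6308 CPM in the core cells of the 3 libraries, while the megakaryocyte list reaches 15811 CPM in all aGVHD cells and 115.7 CPM in its core cells.

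Venular cells made up a far smaller share of the endothelium in both transplanted libraries. In WT 140 of 521 gated endothelial cells were venular (26.9%, interval 23.1% to 30.9%). In BMT the count was 21 of 799 (2.63%, 1.63% to 3.99%) and in aGVHD 16 of 1200 (1.33%, 0.764% to 2.16%). Core cells were 20.7%, 1.001% and 0.667% of the endothelial cells. After thinning every endothelial cell to 2000 UMIs, and leaving out 76, 63 and 250 shallower cells, the shares were 25.4% (86 of 339), 1.94% (13 of 670) and 1.36% (11 of 807). Capillary cells went the other way, with 176 in WT, 592 in BMT and 938 in aGVHD, and sinusoidal cells numbered 49, 76 and 18. Of all called cells, venular cells were 1.96%, 0.580% and 0.287%. Because Selp, Ackr1, Vwf and Slco2a1 define the gate, fewer venular cells, less of these RNAs per cell and a different yield of digestion and sort cannot be told apart.

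In untreated marrow several adhesion, vasoactive and matrix genes differed between venular and capillary cells. Sele, the gene of E-selectin, was 470.3 against 1.32 CPM, and Icam1, the ligand of leukocyte integrins, was 472 against 44.8 CPM, or 10.5-fold higher (7.44 to 15.4). Csf3, the gene of the neutrophil growth factor G-CSF, had 119 UMIs in 26 venular cells and 0 in capillary cells. With the summed capillary count of 0 set to a floor of 3 UMIs, it was 31.1-fold higher. Against capillary cells all 3 genes of leukocyte traffic were higher. Eln (elastin) was 416 against 43.5 CPM and Lrg1, a secreted glycoprotein, 1029 against 166 CPM. Ptgs1, the constitutive cyclooxygenase, was 5.38-fold higher (3.70 to 8.06) and Edn1, the gene of the vasoconstrictor endothelin-1, 4.64-fold higher (3.05 to 7.32). Plvap, which forms the diaphragms of fenestrae and caveolae, was 3.48-fold higher (3.12 to 3.89), and Nr2f2, the transcription factor of venous identity, 2.45-fold higher (1.91 to 3.19). The venular cells had less RNA of a smaller group. Kdr, the main VEGF receptor, was 3.24-fold lower (2.78 to 3.80), Ly6c1 2.93-fold lower (2.66 to 3.23) and Flt4, the VEGFR-3 gene, 9.37-fold lower (5.44 to 17.3). The chemokine gene Cxcl12 was 374 against 1963 CPM. By the free RNA estimate, 23.1% of the RNA in these capillary cells was free RNA, against 0.613% in the venular cells. These capillary cells also held 2647 CPM of a lymphatic list and 2364 CPM of a marrow stroma list that includes Cxcl12. The venular cells held 18.6 and 868 CPM of these lists. The part of free, lymphatic or stromal RNA in the ratios was not tested.

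Several genes also differed between the venular and the sinusoidal cells of WT. Stmn2, which regulates microtubules, had 264 UMIs in venular cells and 0 in sinusoidal cells. With the sinusoidal count of 0 set to the floor used above, it was 38.3-fold higher. Edn1, also with 0 UMIs in sinusoidal cells, was 22.4-fold higher by the same floor. These folds are not interval bounds. Ace, the angiotensin-converting enzyme, was 20.2-fold higher (7.74 to 74.8), Eln 14.6-fold higher (8.29 to 28.6) and Cav1, the structural protein of caveolae, 11.4-fold higher (7.92 to 17.0). Fbln2, a matrix protein of vessel walls, was 7.06-fold higher (5.04 to 10.2). Sele was 470.3 against 128 CPM and Icam1 1.64-fold higher (1.34 to 2.01), while Csf3 was 123 against 94.7 CPM, or 1.30-fold higher (0.899 to 1.90), an interval that includes 1. The same held for Fbln5, at 1.17-fold higher (0.848 to 1.65), and for Calcrl, at 1.18-fold higher (0.899 to 1.55). Nr2f2 was 265 against 289 CPM, or 1.09-fold lower (0.871 to 1.36), an interval that includes 1. Vcam1 ran the other way, at 108 against 973 CPM, 8.98-fold lower (7.23 to 11.2) in venular cells. Flt4 was 21.6-fold lower (12.6 to 39.6) and the clotting factor gene F8 27.8-fold lower (14.6 to 59.4). The sinusoidal cells of WT held 13086 CPM of fibroblast genes and the venular cells 11425 CPM.

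Within WT, cells with and without Selp or Ackr1 were not alike in genes outside the gate. The 108 core cells had 417 UMIs of Sele and the 21 unmixed cells without Selp or Ackr1 had 0. Lrg1 was 1283 against 274 CPM, 4.69-fold higher (3.22 to 7.10) in core cells. Nr2f2 was 2.93-fold higher (1.61 to 5.96), Nrp2, a semaphorin and VEGF co-receptor of veins, 2.66-fold higher (1.58 to 4.82), Apoe 2.97-fold higher (2.39 to 3.74) and Icam1 2.64-fold higher (1.74 to 4.22) in core cells. Other genes were lower in core cells: Stmn2 was 3.53-fold lower (2.70 to 4.58), Sox4 3.25-fold lower (2.25 to 4.63), Ly6a 2.39-fold lower (1.86 to 3.04), Kdr 2.29-fold lower (1.64 to 3.15) and Cxcl12 2.16-fold lower (1.66 to 2.79). Not every gene of the venous list was higher in core cells: Ephb4, the ephrin receptor of veins, was 159 against 166 CPM, or 1.04-fold lower (0.587 to 1.75), an interval that includes 1. Plvap (2161 against 1964 CPM), Eln (480.3 against 479 CPM) and Edn1 (196 against 156 CPM) are given for comparison. The gates of BMT and aGVHD held larger shares of cells without Selp or Ackr1 than that of WT.

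Between BMT and WT, RNA of antigen presentation and of the interferon response was higher in the venular gate, and a smaller set of secreted factor and lipid genes was lower. A gene was measured with at least 50 UMIs over both libraries, which 3493 genes reached. It passed the size rule when it differed at least 2-fold, its interval did not include 1, and its higher level was at least 2 times that of the empty droplets of the same library, which hold free RNA. Of the measured genes 112 were higher in BMT (3.21%) and 67 lower (1.92%). Lists of genes were also counted past 1.5-fold without further limits, which 16.7% of all measured genes passed upward and 16.1% downward, with a median log2 fold of 0.02 over all of them. All 4 measured MHC class II genes (of 7 listed) and all 11 measured interferon gamma genes (of 31 listed) passed 1.5-fold upward. Of the 7 measured type I interferon genes (of 30 listed) 6 did, and of the 16 measured MHC class I and peptide loading genes (of 19 listed) all 16. The 4 class II genes reached the minimum of 50 UMIs through BMT, so their upward direction followed from being measured. Genes low in both libraries are not counted. The lists were drawn up with results of these libraries known, so these counts are a description.

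MHC class II genes showed the widest separation. Cd74, the invariant chain that guides class II molecules, had 4 UMIs in WT (4.13 CPM, 1.12 to 10.6), 281 in BMT (1443 CPM, 1279 to 1622) and 221 in aGVHD (1707 CPM, 1489 to 1948). BMT was 349.7-fold higher (135 to 1292). H2-Aa, an alpha chain, was 5.16, 467 and 440.3 CPM, and H2-Ab1, the matching beta chain, 9.28, 447 and 564 CPM. H2-Eb1 had 0, 55 and 50 UMIs, so that BMT was 91.3-fold higher with WT set to the floor of 3 UMIs. Both transplanted libraries were high and WT was near 0 for all 4 genes. The RNA was spread over cells: Cd74 was found in 3 of 140 WT cells, 16 of 21 BMT cells and 13 of 16 aGVHD cells. With every cell thinned to 1500 UMIs these were 0 of 140 (an upper limit of 2.60%), 13 of 21 and 12 of 16. In red cells, which should lack it, Cd74 was found after the same thinning in 0 of 517 (WT), 0 of 25 (BMT) and 18 of 751 cells (aGVHD, 2.40%), whose medians before thinning were 12427, 11225 and 9677 UMIs. Not all of the BMT signal was venous, as 161 of the 281 BMT UMIs lay in the 8 arterial-leaning cells. In core cells Cd74 was 5.84, 908 and 3635 CPM. That was 156-fold higher (58.2 to 587) in BMT over WT and 4.001-fold higher (3.004 to 5.37) in aGVHD over BMT. Among the 8 core cells of each library it ranged from 0 to 37 UMIs in BMT (median 2.5) and from 2 to 61 in aGVHD (median 13). H2-Aa and H2-Ab1 were 3.07-fold higher (1.79 to 5.38) and 4.64-fold higher (2.55 to 8.85) in the core cells of aGVHD over BMT. Capillary cells had 7.90, 288 and 897 CPM of Cd74 and sinusoidal cells 16.6, 2397 and 2837 CPM, so WT was the lowest library in all 3 vessel gates.

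Interferon gamma induces many of these genes through factors that bind short motifs near their start sites, so the 250 bases before the start are shown for 2 class II genes, 2 genes that were higher in aGVHD and the E-selectin gene. The sequences are from RefSeq on GRCm38.p6, 5′ to 3′ on the gene's strand. H2-Aa lies at chr17:34287824-34288073 on the minus strand, H2-Eb1 at chr17:34305617-34305866 on the plus strand, Cxcl10 at chr5:92348890-92349139 on the minus strand, Ubd at chr17:37193642-37193891 on the plus strand and Sele at chr1:164047984-164048233 on the plus strand. Capitals mark matches, on either strand, to 4 motifs: the interferon gamma activated site (TTCNNNGAA), the core of an interferon-stimulated response element (TTTC, any 2 bases, TTTC), the CCAAT box (CCAAT) and a kappa B type site (GGG, any 2 bases, TTTCC).
H2-Aa: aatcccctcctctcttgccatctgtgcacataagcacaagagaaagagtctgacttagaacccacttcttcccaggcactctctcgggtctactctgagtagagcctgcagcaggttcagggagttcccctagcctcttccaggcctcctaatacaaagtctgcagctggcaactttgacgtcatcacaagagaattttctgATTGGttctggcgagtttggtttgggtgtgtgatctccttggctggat
H2-Eb1: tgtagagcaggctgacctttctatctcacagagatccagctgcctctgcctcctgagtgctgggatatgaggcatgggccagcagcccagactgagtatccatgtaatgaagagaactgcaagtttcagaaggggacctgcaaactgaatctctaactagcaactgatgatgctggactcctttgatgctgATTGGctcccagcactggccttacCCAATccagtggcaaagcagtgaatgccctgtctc
Cxcl10: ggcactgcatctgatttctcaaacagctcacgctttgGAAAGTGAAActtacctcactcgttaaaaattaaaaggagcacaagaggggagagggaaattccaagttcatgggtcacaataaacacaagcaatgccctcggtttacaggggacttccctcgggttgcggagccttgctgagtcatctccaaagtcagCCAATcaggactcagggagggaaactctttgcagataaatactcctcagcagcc
Ubd: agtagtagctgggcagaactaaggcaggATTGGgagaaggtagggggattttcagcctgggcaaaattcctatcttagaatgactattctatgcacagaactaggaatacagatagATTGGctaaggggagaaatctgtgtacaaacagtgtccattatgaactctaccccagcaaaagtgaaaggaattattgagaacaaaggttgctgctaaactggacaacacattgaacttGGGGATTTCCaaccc
Sele: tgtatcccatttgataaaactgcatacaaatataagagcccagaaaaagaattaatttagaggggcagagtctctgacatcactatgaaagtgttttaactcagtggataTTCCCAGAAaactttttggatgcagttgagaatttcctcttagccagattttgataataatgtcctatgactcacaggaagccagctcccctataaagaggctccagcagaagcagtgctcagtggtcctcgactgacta
Both class II promoters hold a CCAAT box in reverse, 48 to 44 bases before the start in H2-Aa and 59 to 55 in H2-Eb1, and H2-Eb1 holds a forward match at 35 to 31. Cxcl10 holds a response element match at 213 to 204 and a CCAAT box at 54 to 50. Ubd holds a kappa B type match at 15 to 6, and CCAAT boxes in reverse at 222 to 218 and 134 to 130. Sele holds an activated site match at 140 to 132. The marked matches do not overlap. Of 32851 promoter stretches of this length, 7.02% hold the activated site, 2.98% the response element, 33.8% the CCAAT box and 1.41% the kappa B type site. A match describes letters and says nothing about binding in these cells.

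Genes of the interferon response were higher in BMT as a group. Gbp4, a guanylate-binding protein induced by interferon gamma, was 86.6 CPM in WT, 611 in BMT and 788 in aGVHD. BMT was 7.05-fold higher (5.29 to 9.44), and 6.61-fold higher (4.52 to 9.61) in core cells. Gbp7 was 60.9, 344 and 332 CPM, 5.65-fold higher (3.92 to 8.16) in BMT and 5.08-fold higher (3.102 to 8.19) in its core cells. WT was the low library for both genes, and over the whole gate BMT and aGVHD lay close together. Without the cells past the megakaryocyte, fibroblast or mural limits, the log2 fold of aGVHD over BMT was 1.10 for Gbp4 and 0.25 for Gbp7. The interferon gamma list had a median log2 fold of 2.32 over the whole gate and 2.01 over the 4 genes measured in core cells. Iigp1, a GTPase of the same response, was 242, 688 and 734 CPM, and 288, 921 and 1597 CPM in core cells, 3.20-fold higher (2.41 to 4.22) in BMT. Irf1, a transcription factor of the response, was 280.3, 857 and 532 CPM in core cells, 3.06-fold higher (2.28 to 4.06) in BMT. Bst2 (tetherin) was 183, 857 and 711 CPM, 4.70-fold higher (3.78 to 5.84) in BMT over the gate. Wars, a tRNA synthetase that interferon gamma induces, was 34.0, 210.5 and 348 CPM. Its difference, 6.18-fold higher (3.82 to 10.1) in BMT, came with 31 of 41 BMT UMIs in arterial-leaning cells, and core cells had 39.4 CPM in WT and 51.2 in BMT.

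MHC class I genes had more RNA in the BMT library, in the gated cells and in the empty droplets alike. H2-D1, a heavy chain, was 1746, 6079 and 5515 CPM, its light chain B2m 1075, 3819.8 and 5561 CPM, and H2-K1 858, 3419 and 3499 CPM. WT was the lowest library for each. BMT over WT was 3.48-fold higher (3.23 to 3.75), 3.55-fold higher (3.23 to 3.91) and 3.98-fold higher (3.59 to 4.42). The empty droplets of BMT held 5376 CPM of H2-D1, 3140.1 of B2m and 2919 of H2-K1, and those of WT 1279, 632 and 564 CPM. With this limit none of the 16 class I genes passed the size rule. The free RNA estimate for the gated BMT cells was 0.561%. The list's median log2 fold was 1.76 over the whole gate and 1.06 in core cells. Several H2 genes are near-identical copies, as are several Gbp genes, and these mice carry BALB/c alleles beside those of the reference genome, so the level of a single member is uncertain.

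**Figure D3:**
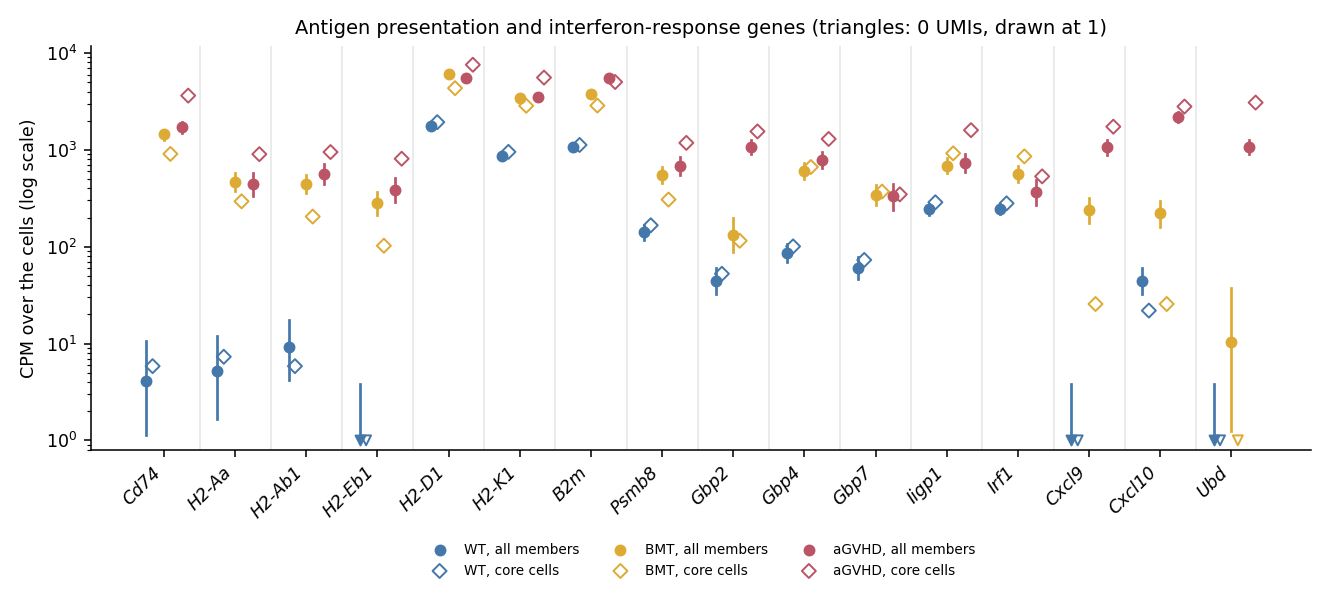
CPM (log scale) of 16 interferon response and antigen presentation genes in the 3 libraries, filled points with 95% counting intervals for all gated cells, open diamonds for core cells and triangles, drawn at 1, for genes with no UMI. Over all gated cells Cd74 lies at 4.13 CPM in WT, 1443 in BMT and 1707 in aGVHD, and Ubd at 0, 10.3 and 1074 CPM.

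Other surface and stress genes were higher in BMT. Ly6a, the gene of SCA-1, was 407 CPM in WT, 1941 in BMT and 1908 in aGVHD, and 377, 1088 and 3403 CPM in core cells. BMT was 4.76-fold higher (4.13 to 5.50), and 2.89-fold higher (2.23 to 3.70) in core cells. Ly6c1 and Ly6e were 3.34-fold higher (2.93 to 3.79) and 2.66-fold higher (2.29 to 3.07), and 4 of 5 measured Ly6 genes passed 1.5-fold. Of 9 measured p53 targets 5 passed 1.5-fold upward and none downward. Cdkn1a, the cell cycle inhibitor p21, was 278, 919 and 711 CPM, 3.30-fold higher (2.72 to 4.001) in BMT, and 266, 793 and 995 CPM in core cells. Each of the 8 BMT core cells carried Cdkn1a, with 2 to 18 UMIs and a median of 7.5, against a median of 1 in WT core cells. After thinning to 1500 UMIs it was found in 32 of 108, 5 of 8 and 3 of 8 core cells, and in 26 of 517, 3 of 25 and 24 of 751 red cells. Btg2, an antiproliferative gene, was 4.08-fold higher (3.41 to 4.88) over the whole gate and 1.60-fold higher (1.09 to 2.28) in core cells, and 176 of its 228 BMT UMIs lay in arterial-leaning cells. Klf2, a shear-induced transcription factor, was 653, 1391 and 989 CPM, 2.13-fold higher (1.84 to 2.46) in BMT and 2.28-fold higher (1.82 to 2.83) in core cells. Icam2, a constitutive adhesion molecule, was 107, 365 and 301 CPM, 3.40-fold higher (2.48 to 4.64) and 2.61-fold higher (1.54 to 4.24) in core cells. Cd36, a fatty acid transporter chosen after its values were seen, was 285, 975 and 579 CPM, 3.43-fold higher (2.83 to 4.14) in BMT. Immediate early genes passed 1.5-fold upward in 9 of 18 cases and downward in none, and in core cells in 6 and 1 of 18, where 401 of all 2345 measured genes passed upward and 438 downward.

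Leukocyte adhesion genes did not follow one direction in BMT: 3 of 10 measured members passed 1.5-fold upward, 1 downward, and the median log2 fold was 0.18. Sele was 470.3 CPM in WT and 585 CPM in BMT, 1.24-fold higher (1.004 to 1.53). In core cells, where it is concentrated, it was 609 and 1356 CPM, 2.23-fold higher (1.78 to 2.76) in BMT and past the size rule. Icam1 was 472 and 385 CPM, and 594 and 793 CPM in core cells. Vcam1 was 108 CPM in WT, 406 in BMT and 772 in aGVHD. Its difference, 3.75-fold higher (2.76 to 5.06) in BMT, did not pass the limit against empty droplets, which held 367 CPM in BMT. Pecam1, the junctional molecule CD31, was 1217 and 1258 CPM, 1.03-fold higher (0.897 to 1.19) in BMT, and Plvap 1843 and 1669 CPM, or 2161 and 2994 CPM in core cells. The junction and barrier list had a median log2 fold of 0.05 and the haemostasis list of 0.02, with 0 of 11 and 0 of 13 members past the size rule.

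**Figure D4:**
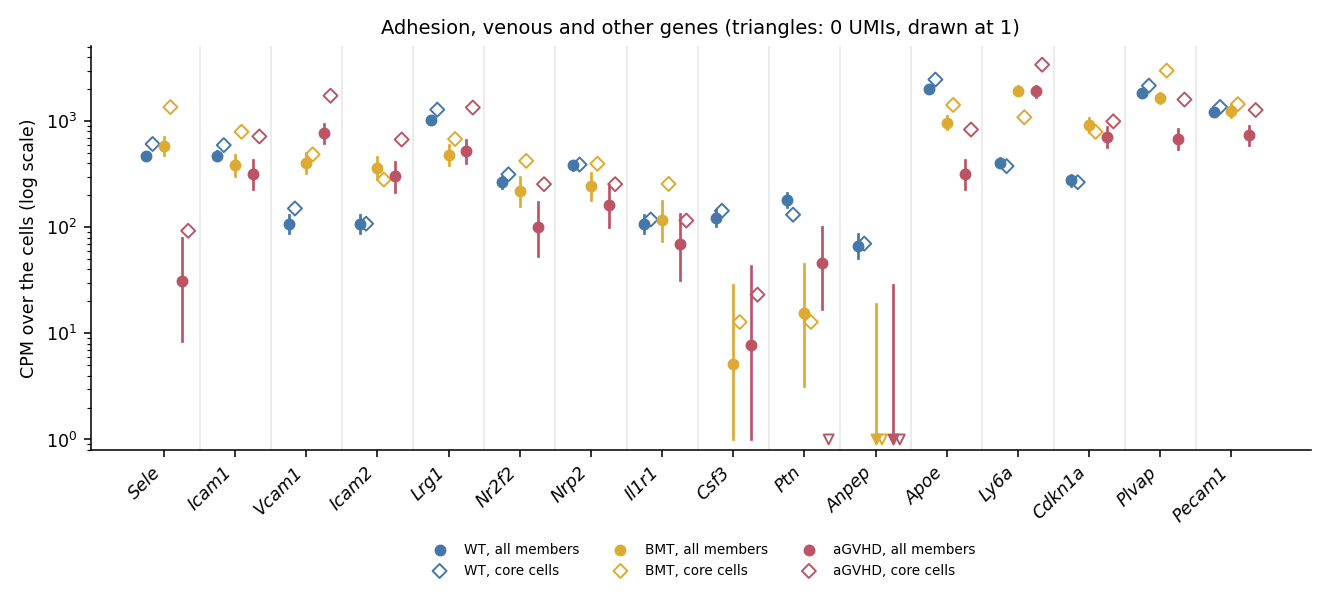
CPM (log scale) of 16 adhesion, venous and other genes in the gated cells of the 3 libraries, filled points with 95% counting intervals for all gated cells and open diamonds for core cells, intervals that reach under 1 being drawn to 1 and triangles marking genes with no UMI. Sele goes from 585 CPM in BMT to 30.9 in aGVHD, and from 1356 to 92.6 CPM in core cells.

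Genes lower in BMT than in WT included secreted factors and receptors of the untreated venule. Csf3 had 119, 1 and 1 UMIs in WT, BMT and aGVHD, the WT level being 123 CPM. BMT was 23.9-fold lower (4.21 to 952) on a base of 1 UMI, and WT core cells held 98 of the 119 UMIs. Anpep, the aminopeptidase CD13, had 65, 0 and 0 UMIs, found in 44 WT cells, and BMT was 4.35-fold lower by the floor of 3 UMIs. Scarb1, the HDL receptor, was 333, 82.1 and 61.8 CPM, 4.06-fold lower (2.46 to 7.18) in BMT and 3.35-fold lower (1.67 to 7.85) in core cells. WT was the highest library for all 3 genes. Ppp1r18, a phosphatase regulator, was 3.93-fold lower (2.02 to 8.73) and 9.01-fold lower (2.45 to 75.1) in core cells. Lrg1 was 1029, 483 and 518 CPM, 2.13-fold lower (1.73 to 2.66) in BMT, while core cells held 1283, 678 and 1343 CPM. Apoe, the lipid carrier, was 1996, 970.3 and 317 CPM, 2.06-fold lower (1.77 to 2.40) over the gate and 1.74-fold lower (1.43 to 2.12) in core cells. Ptn (pleiotrophin) was 183, 15.4 and 46.3 CPM, the transcription factor gene Sox4 209, 51.3 and 38.6 CPM and Mmp14, a membrane-bound matrix protease, 95.9, 20.5 and 46.3 CPM. Each of these 3 genes passed the size rule over the whole gate in BMT, at 11.9-fold lower (3.99 to 58.0), 4.08-fold lower (2.17 to 8.63) and 4.67-fold lower (1.76 to 17.5). In core cells they were 131, 12.8 and 0 CPM, 145, 64.0 and 46.3 CPM and 58.4, 12.8 and 69.4 CPM. Car3, a carbonic anhydrase, had 130, 1 and 0 UMIs, with 130 WT UMIs in 2 cells and 0 in core cells.

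The arterial-leaning cells supplied a further set of genes that stood out in BMT. Gkn3 had 16, 71 and 0 UMIs, and 71 of the BMT UMIs lay in the 8 arterial-leaning cells. Sema3g, a semaphorin of arteries, had 29, 46 and 12 UMIs, with 46 of BMT in the same cells. Fbln5, an elastic fibre protein, was 144, 642 and 100.4 CPM, with 116 of 125 BMT UMIs there, and core cells held 163, 89.6 and 116 CPM. Sema3g, Fbln5 and Sox17 are members of the list that marked these cells. Over the whole gate Gkn3, Sema3g and Fbln5 were 22.1-fold higher (12.7 to 40.7), 7.90-fold higher (4.86 to 13.0) and 4.44-fold higher (3.46 to 5.70) in BMT. Edn1 was 2.23-fold higher (1.65 to 2.98) over the gate and 1.37-fold higher (0.823 to 2.19) in core cells. Sox17, an arterial transcription factor, was 2.35-fold higher (1.59 to 3.43) over the gate, and core cells held 104 CPM in WT and 64.0 in BMT.

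Between aGVHD and BMT, interferon gamma genes were higher and vessel wall genes lower in the aGVHD venular cells. Only 1004 genes were measured, since these gates together held few UMIs. Of them 52 were higher past the size rule (5.18%) and 137 lower (13.6%), and 18.7% and 27.6% passed 1.5-fold upward and downward, with a median log2 fold of -0.08. Of 15 measured interferon gamma genes 9 passed 1.5-fold upward and 1 downward, with a median log2 fold of 1.05. Without the cells that held RNA of another type 9 of 11 did, with a median of 1.69. Among core cells 7 of 8 passed upward and 1 downward, with a median of 4.78. Only 8 of the 31 listed genes were measured in core cells, some of them mainly through aGVHD. Ubd, for example, had 0 UMIs in the BMT core cells and up to 86 in an aGVHD core cell. Genes low in both libraries are left out by the UMI minimum, so this count and median lean upward and are a description. MHC class II genes had a median of 0.29 over the gate, and all 3 measured in core cells passed the size rule upward. Class I genes had medians of 0.19 and 0.97. The angiopoietin and VEGF list had 9 of 11 genes past 1.5-fold downward and none upward (median -1.26), the matrix list 7 of 11 (median -1.13), the junction list 6 of 7 (median -1.23) and the prostanoid and vasoactive list 4 of 4 (median -1.71). In core cells these 4 medians were -0.99, -0.86, -0.68 and -1.41, over 6, 7, 4 and 2 genes. Without the cells that held RNA of another type, the angiopoietin and VEGF list had 4 of 9 genes past 1.5-fold downward and 1 upward (median -0.30), the matrix list 6 and 1 of 10 (median -0.80), the junction list 3 and 0 of 7 (median -0.37) and the prostanoid and vasoactive list 4 and 0 of 4 (median -1.06). Over all measured genes 49 of 361 passed 1.5-fold upward and 80 downward in core cells, and 78 of 670 and 155 without the cells that held RNA of another type. CPM are shares of the gate's total, and the mixed cells weighed on it: without them the sums were 166682 of 194777 UMIs in BMT and 53514 of 129467 UMIs in aGVHD.

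Ubd and Cxcl10, both induced by interferon gamma, were higher in aGVHD than in BMT. Ubd, the gene of the ubiquitin-like modifier FAT10, had 0, 2 and 139 UMIs in WT, BMT and aGVHD, the aGVHD level being 1074 CPM (903 to 1268). The difference, 105-fold higher (28.4 to 872), has a base of 2 UMIs. The aGVHD UMIs lay in 5 of 16 cells, 86 of them in 1 cell, and 133 were in core cells. Red cells carried Ubd in 0 of 25 cases in BMT and 14 of 751 in aGVHD. With the gate applied to thinned cells the log2 fold of Ubd was 1.96, from fewer UMIs. Cxcl10 had 43, 43 and 282 UMIs, or 44.4, 221 and 2178 CPM, 9.87-fold higher (7.14 to 13.9) in aGVHD, and was found in 5 of 21 BMT and 10 of 16 aGVHD cells. Among red cells 3 of 25 and 164 of 751 carried it. After thinning to 1500 UMIs the counts were 3 of 21 and 8 of 16 venular cells, and 0 of 25 and 49 of 751 red cells. In core cells it was 25.6 CPM in BMT, from 2 UMIs, and 2801 CPM in aGVHD, 109-fold higher (29.7 to 914). It was found in 5 of 8 aGVHD core cells, with 74 UMIs in 1 cell and a median of 2. Cxcl9, a related chemokine gene, had 0, 47 and 138 UMIs, with 40 of the BMT UMIs in 1 cell. It was 4.42-fold higher (3.15 to 6.29) in aGVHD, while the aGVHD empty droplets held 889 CPM. It was found in 1 of 8 BMT core cells and 5 of 8 aGVHD core cells, and in 2 of 25 and 65 of 751 red cells. Gbp2 and Serpina3g, a guanylate-binding protein and a serpin, were chosen after their values were seen: Gbp2 was 44.4, 133 and 1074 CPM, 8.04-fold higher (5.26 to 12.7) in aGVHD, and Serpina3g 0, 87.3 and 772 CPM, 8.85-fold higher (5.26 to 15.8). In core cells they were 52.6, 115 and 1551 CPM and 0, 25.6 and 1435 CPM. The highest aGVHD core cell held 28 UMIs of Gbp2 (median 6), and the highest for Serpina3g held 34 (median 1.5). Both genes were lowest in WT and highest in aGVHD. After thinning to 1500 UMIs, Gbp2 was found in 9 of 140, 6 of 21 and 11 of 16 cells, and in 12 of 517, 0 of 25 and 46 of 751 red cells.

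Adhesion genes diverged in aGVHD. Sele was 470.3 CPM in WT (428 to 516), 585 in BMT (483 to 703) and 30.9 in aGVHD (8.42 to 79.1), from 456, 114 and 4 UMIs. aGVHD was the low library, 18.9-fold lower (7.20 to 70.7) against BMT. In core cells the levels were 609, 1356 and 92.6 CPM, 14.6-fold lower (5.55 to 54.7) in aGVHD. Sele was found in 65 of 108, 5 of 8 and 2 of 8 core cells, and after thinning to 1500 UMIs in 43, 5 and 1 of them, with no red cell of any library carrying it. Vcam1, in contrast, was 150.4, 486 and 1736 CPM in core cells, 3.57-fold higher (2.39 to 5.42) in aGVHD, with 60 of its 75 aGVHD core UMIs in 1 cell. Icam1 in core cells was 594, 793 and 718 CPM, 1.11-fold lower (0.707 to 1.76) in aGVHD, and Icam2 108, 281 and 671 CPM, 2.39-fold higher (1.32 to 4.36). Lrg1 was 1.07-fold higher (0.772 to 1.48) over the gate and 1.98-fold higher (1.34 to 2.93) in core cells. Among the 10 measured adhesion genes 5 passed 1.5-fold downward and 1 upward over the gate, and 2 of 7 each way in core cells, against 80 downward and 49 upward of all 361 genes measured there.

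The matrix genes Ltbp4, Eln and Fbln2 and several genes of vessel signalling were lower in aGVHD, over the whole gate and in core cells. Fbln5, an elastic fibre gene, was lower over the whole gate but not in core cells. Ltbp4, which tethers latent TGF-beta to the matrix, was 757 CPM in WT, 673 in BMT and 77.2 in aGVHD, 8.71-fold lower (4.59 to 18.6) in aGVHD and 12.3-fold lower (4.05 to 61.4) in core cells. Eln was 416, 524 and 61.8 CPM, 8.47-fold lower (4.14 to 20.2) and 5.53-fold lower (2.40 to 15.7) in core cells. Fbln2 was 601, 893 and 178 CPM, 5.03-fold lower (3.24 to 8.14) and 3.87-fold lower (1.91 to 8.85) in core cells. For these 3 genes WT and BMT were both high and aGVHD was low. Adamts1, a secreted protease, was 521, 1037 and 216 CPM, and 588, 1177 and 185 CPM in core cells, 6.36-fold lower (3.09 to 15.2) in aGVHD. Ptprb, the phosphatase that dampens the TIE2 receptor, was 919, 1550.5 and 324 CPM, 4.78-fold lower (3.45 to 6.77) and 3.32-fold lower (2.16 to 5.29) in core cells. Further signalling and transport genes passed the size rule both over the gate and in core cells. Flt1, a VEGF receptor, was 3.096-fold lower (2.17 to 4.52) and 2.38-fold lower (1.45 to 4.08) in core cells, Calcrl, the adrenomedullin receptor, 3.99-fold lower (2.03 to 8.74) and 3.63-fold lower (1.63 to 9.53), and Cav1 2.40-fold lower (1.82 to 3.20) and 2.52-fold lower (1.65 to 3.97). Fabp4, a fatty acid carrier, was 11427, 11362 and 4024 CPM, 2.82-fold lower (2.57 to 3.11) and 2.47-fold lower (2.18 to 2.80) in core cells, and Ier3, an NF-kB target, 2.62-fold lower (2.08 to 3.33) and 2.50-fold lower (1.80 to 3.55). Nrp1, a VEGF co-receptor chosen after its values were seen, was 300.1, 759.8 and 154 CPM, 2.53-fold higher (2.06 to 3.096) in BMT over WT and 4.92-fold lower (3.07 to 8.29) in aGVHD over BMT. Ace was 191, 288 and 30.9 CPM, 9.31-fold lower (3.44 to 35.3), and 203, 319.9 and 92.6 CPM in core cells. Part of this group did not keep its size when the gate was applied at equal depth. With the gate applied to cells thinned to 2000 UMIs (13 in BMT, 11 in aGVHD), the log2 fold was -2.31 for Sele, -2.63 for Ltbp4, -1.51 for Eln, -1.82 for Fbln2 and -1.004 for Ptprb, still lower in aGVHD. It was -0.48 for Flt1 and -0.59 for Cav1, and turned to 0.12 for Adamts1 and 0.21 for Ier3. Fabp4 was at -0.70 without the cells that held RNA of another type.

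Part of the lower set did not pass the size rule in core cells. Plvap was 2.45-fold lower (1.93 to 3.14) in aGVHD over the gate and 1.87-fold lower (1.43 to 2.49) in core cells, Nr2f2 2.20-fold lower (1.16 to 4.46) and 1.66-fold lower (0.817 to 3.64), and Eng, a TGF-beta co-receptor, 2.22-fold lower (1.58 to 3.16) and 1.66-fold lower (1.06 to 2.67). Tek, the TIE2 gene, was 3.03-fold lower (1.45 to 7.09), with core cells at 253, 281 and 139 CPM. Nfkbia, an NF-kB inhibitor, was 2.100-fold lower (1.75 to 2.54) and 1.76-fold lower (1.37 to 2.29) in core cells. Edn1 was 2.70-fold lower (1.57 to 4.89) over the gate, with 269 CPM in BMT and 255 in aGVHD core cells. Mgp, a matrix protein, changed sign, being 3.32-fold lower (2.60 to 4.29) over the gate and 218 against 718 CPM in BMT and aGVHD core cells, and 373 of its 390 BMT UMIs lay in arterial-leaning cells. Gkn3, Sema3g, Fbln5 and Stmn2 were lower in aGVHD over the gate, and 71, 46, 116 and 49 of their 71, 46, 125 and 66 BMT UMIs lay in those cells. Under the thinned gate Eng, Nfkbia and Edn1 turned to log2 folds of 0.062, 0.14 and 0.86, and with no Gpihbp1 UMI allowed Tek turned to 0.19. Pecam1 was 1258 CPM over the BMT gate and 742 over the aGVHD gate, against 1446 and 1273 CPM in core cells.

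Several genes past the size rule upward in aGVHD belonged to other cells caught in the gate. Pf4 had 8, 104 and 1407 UMIs, and 1403 of those of aGVHD lay in the 5 cells with megakaryocyte RNA. Gp1bb, Gp9, Itga2b and Nrgn followed it with 175 of 175, 107 of 108, 164 of 164 and 179 of 184 UMIs in the same cells. Dcn and Apod, both genes of fibroblasts, had 183 and 87 UMIs in aGVHD, 183 and 87 of them in 1 cell. Core cells exclude most of this RNA by their definition.

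Across vessel types, the interferon gamma list was higher in BMT in all 3 gates. Its median log2 fold for BMT over WT was 2.32 over 11 genes in venular cells, 2.09 over 25 in capillary cells and 3.005 over 18 in sinusoidal cells. For aGVHD over BMT it was 1.05 over 15 genes, 1.32 over 29 and 0.51 over 22. The measured genes differ between vessel types because the venular gates are small, and the difference between vessel types was not tested. The free RNA estimate in capillary cells was 23.1% in WT, 3.28% in BMT and 15.4% in aGVHD. Both comparisons use the BMT library, so a gene high by chance in BMT is higher in the first and lower in the second.

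**Figure D5:**
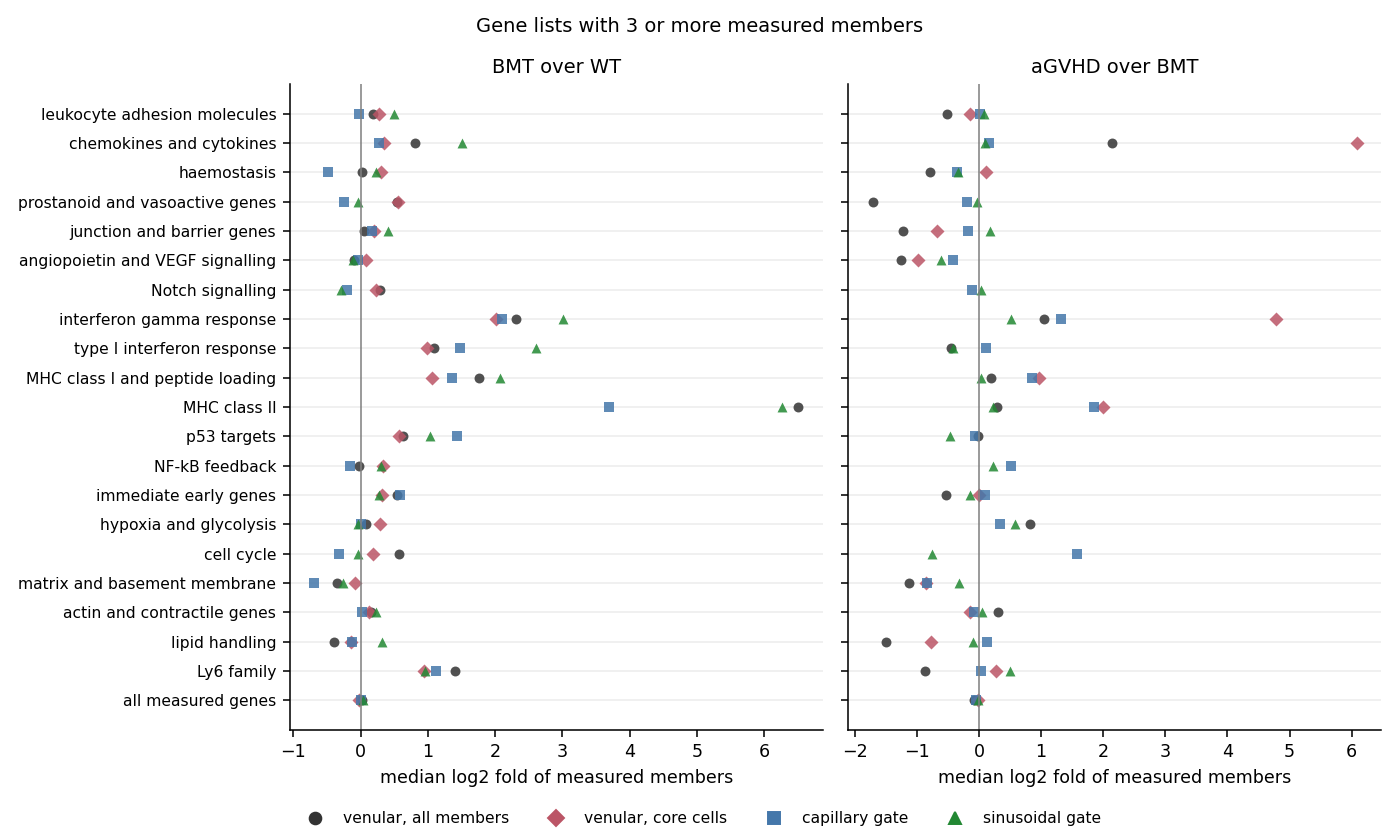
Median log2 fold of each function list for BMT over WT and aGVHD over BMT, in all venular cells, in core cells and in the capillary and sinusoidal gates. The interferon gamma list lies at 2.32 in all venular cells for BMT over WT and at 1.05 for aGVHD over BMT. In core cells it lies at 4.78 for aGVHD over BMT, over 8 measured genes, some of them measured mainly through aGVHD.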

How the data were processed

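The deposited files hold whole-number UMI counts per gene and barcode for all barcodes of each library (27998 genes, 6794880 barcodes), made by the authors with Cell Ranger 3.1.0, per the file headers. The submitters' processing notes name Cell Ranger, Seurat and mm10. Cells, gates and sums were computed from these counts with Python 3.11.15, numpy 2.4.6, scipy 1.17.1, pandas 2.3.3 and scanpy 1.11.5, and figures drawn with matplotlib 3.10.9. The members and gene lists were chosen with earlier results of these data known. Groups come from the sample labels, and BMT was compared with WT and aGVHD with BMT. Intervals of levels are exact Poisson intervals, those of ratios exact conditional binomial intervals, and those of shares Clopper-Pearson intervals, all at 95%. A gene without a UMI in a library was set to 3 UMIs for its fold, which is not an interval bound. Empty droplets are barcodes of 1 to 100 UMIs. Named genes are the 10 higher and 10 lower genes of each comparison whose nearer interval bound lay farthest from 1, an endothelial panel of 34 genes, and the 3 members with most UMIs of each of 20 function lists (506 genes in all lists, with 17 of cell types). Likely doublets were scored with Scrublet at an expected 0.8% per 1000 cells (407, 105 and 248 called cells) and kept. Of them 7, 2 and 4 were venular. The counting scripts were tested on simulated data. Promoters come from RefSeq, GRCm38.p6, where 12 of 15 genes asked for matched, and the 250 bases before each start were searched on both strands.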

Additional observations from a re-analysis of the deposited data

Results flagged for a closer look

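Edn1, the endothelin-1 gene, moved in opposite directions between aGVHD and BMT in 2 vessel types. Its log2 fold was -1.43 in the venular gate and 1.54 in the sinusoidal gate, with 1 library per group on each side. The difference was not tested. In venular core cells the log2 fold was -0.08 (269 and 255 CPM). With the gate on cells thinned to 2000 UMIs it was 0.86, the same direction as in the sinusoidal gate.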

How the results depend on the processing

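The shares, the counts past the size rule and the list medians were recomputed under 16 other settings. Dropping barcodes under 2000 UMIs, a mitochondrial limit of 5% and a venular sum of at least 3 moved none of the shares, counts and medians of the adhesion, interferon, MHC class I and p53 lists beyond their limits. Subtracting free RNA and scaling by the median of ratios moved none of these counts and medians, and leave the shares as they are. The size of the gates limits most values, since BMT and aGVHD held 21 and 16 cells, and settings that leave out cells also leave fewer genes measured. Core cells and the setting without cells that held RNA of another type were chosen after the data had been seen. Unless given, the cause of a change was not tested.

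Among core cells (108, 8 and 8) the share, with mixed cells also out of the denominator, was 1.10% in BMT and 0.721% in aGVHD. The lower count for BMT over WT was 23, and the counts for aGVHD over BMT were 23 higher and 32 lower. The list median for MHC class I in BMT over WT was 1.06. For aGVHD over BMT the medians were 4.78 for interferon gamma (8 genes measured), 0.97 for MHC class I and 0.28 for Ly6 (reversed). Fbln5 (-0.87) and Sox17 (-0.70) reversed for BMT over WT, and Btg2 (0.11) and Mgp (1.72) for aGVHD over BMT.

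Without the cells that held RNA of another type (129, 18 and 11 left) the aGVHD over BMT counts were 28 and 51 and the class I median 0.72. Without likely doublets (133, 19 and 12) they were 25, 62 and 0.63. With no Gpihbp1 UMI allowed (126, 13 and 7) the shares were 1.63% in BMT and 0.583% in aGVHD, the counts 30 and 41 and the class I median 0.45. Tek (0.19) and Ramp2 (0.21) then reversed. Weighting every cell equally gave 87 lower genes and a class I median of 0.39.

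With the gate on cells thinned to 2000 UMIs (86, 13 and 11) 29 genes were lower in aGVHD. The adhesion median was 0.29 and the class I median 0.41, and the medians for type I interferon (0.36), hypoxia (-0.19) and Ly6 (0.22) reversed. So did Adamts1 (0.12), Edn1 (0.86), Eng (0.062), Nfkbia (0.14) and Ier3 (0.21) for aGVHD over BMT and Sox17 (-0.38) for BMT over WT. Leaving out cells with 2 UMIs of any other-type list kept 12, 2 and 4 cells, partly because the B lineage list holds Ebf1, which these cells express. The shares were then 8.57%, 0.943% and 0.517%, the counts 12 higher and 11 lower for BMT over WT and 7 and 7 for aGVHD over BMT, and the class I median 0.85. Plvap (0.17), Nfkbia (0.048) and Mgp (2.21) reversed.

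A minimum of 20 UMIs gave 239 higher genes for BMT over WT, 114 higher and 281 lower for aGVHD over BMT, and a type I median of -0.21. A minimum of 100 UMIs gave 53 higher and 34 lower, and 28 and 49. With no limit against the empty droplets the counts were 190 higher and 220 lower for BMT over WT and 91 higher for aGVHD over BMT. Leaving out, for each gene, the cell with the most UMIs left 56 higher genes in BMT. The cell cycle median for BMT over WT reversed in that setting (-0.31), with the 5% mitochondrial limit (-0.092) and without doublets (-0.035). No paired analysis was possible because each group has 1 library.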

Other observations

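Glycolysis genes had more RNA in the aGVHD gate: 5 of 5 measured members of the hypoxia and glycolysis list passed 1.5-fold upward, with a median log2 fold of 0.82. Without the cells that held RNA of another type 1 of 4 did, with a median of 0.25. Isg15, a type I interferon gene chosen after its values were seen, was 51.6 CPM in WT, 241 in BMT and 84.96 in aGVHD. Over the whole gate the highest library was thus BMT and not aGVHD. Without the cells that held RNA of another type 53514 of the 129467 aGVHD UMIs remained, and their part in this order was not tested. Irgm1, an interferon gamma GTPase chosen in the same way, was 32.0, 195 and 232 CPM. Il6st, the shared receptor subunit of the IL-6 family, also chosen in this way, was highest in WT, at 1235, 590.4 and 456 CPM.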
